A study of Homo sapiens with 10 samples.

Results

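HeyA8 cells, an established human ovarian cancer line, were transfected with either of 2 toxic siRNAs and their RNA was compared directly. The libraries were chosen by their labels, siGGGGGC at 48 h (titles siMxy-1 and siMxy-2) and siGGCAGU at 48 h (titles si34a-1 and si34a-2), which are 4 of the 10 libraries of the series. Every cell culture received 10 nM of duplex. The remaining libraries come from cells given siGGGGGC for 24 h or the non-targeting control siNT1 S2'OM for 24 or 48 h. They enter here as reference levels and in a lookup at 24 h. They also share in the filter, the scaling and the spread of the model, but not in the contrast between the siRNAs. The duplicates are wells of 1 cell line, so the p-values measure the spread between wells and libraries, and fewer cells in a cell cycle state cannot be told apart from less RNA per cell. With 2 libraries against 2, no permutation of labels can give a p below 0.333, so the tests are those of a model over all genes. They ask which genes and pathways separate the seeds without passing through the siNT1 control, and a positive log2 fold change always means more RNA with siGGGGGC than with siGGCAGU.

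An siRNA guide strand loaded into an Argonaute protein behaves like a microRNA: its seed, the bases at positions 2 to 7, pairs with complementary words in messenger RNAs, mostly in 3′ UTRs, and Argonaute with its TNRC6 partners then represses and degrades the message. G-rich seeds that match words in many survival genes are toxic to cancer cells, a process known as death induced by survival gene elimination. miR-34a-5p, a tumor-suppressive microRNA that p53 induces, carries such a seed and is known for lowering cyclins, cyclin-dependent kinases and receptors of growth factors.

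The 2 guides share the bases from position 8 on and differ in the seed, which is GGGGGC in siGGGGGC and GGCAGU in siGGCAGU. The matching words in a 3′ UTR are GCCCCC and ACTGCC. The following 6 mature microRNAs of RefSeq (GRCh38.p14) are among those that carry either seed, and the list is not complete. They are shown because they tie each siRNA to natural counterparts. The capitals mark bases 2 to 8, of which only bases 2 to 7 are shared with the siRNA. Base 8 is G or U in these microRNAs and A in both guides.
hsa-miR-34a-5p: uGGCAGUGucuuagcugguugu
hsa-miR-449a: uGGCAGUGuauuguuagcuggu
hsa-miR-449b-5p: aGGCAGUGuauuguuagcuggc
hsa-miR-548au-3p: uGGCAGUUacuuuugcaccag
hsa-miR-4488: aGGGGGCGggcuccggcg
hsa-miR-1237-5p: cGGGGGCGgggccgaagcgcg
The first 4 share the seed of siGGCAGU. The last 2 share the seed of siGGGGGC. miR-34a-5p lies at chr1:9151735-9151756 on the minus strand.

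The 4 libraries held 21198854 to 32113454 counts over genes. Between 24.04% and 31.96% of a library fell on RN7SL2 and SNORD3A, both of them noncoding. The SD over genes of the log2 difference between replicates was 0.193 for siGGGGGC and 0.290 for siGGCAGU, so the siGGCAGU wells differed more from each other. The keratins KRT7, KRT8 and KRT18 of epithelial cells and vimentin (VIM) of mesenchymal cells were abundant in every library. The leukocyte markers PTPRC, CD3E, CD68 and LYZ had 0 to 4 counts in each of these libraries, and the fibroblast markers DCN and PDGFRA 0 to 2. PDGFRB, also on the fibroblast list, had 30 and 55 raw counts with siGGGGGC against 1 and 3 with siGGCAGU and was called higher (4.50). PAX8, a transcription factor of Müllerian lineages, was called lower with siGGGGGC at 119 and 87.0 normalised counts against 909 and 759 (log2 fold change -3.02 ± 0.144 SE, n = 2 each, adjusted p = 2.34e-10). Of the other epithelial markers, KRT8 (-1.93), KRT18 (-1.59) and KRT7 (-1.37) were called lower, EPCAM higher (1.18, adjusted p = 0.00825), and KRT19 (0.60) was not called. The mesenchymal markers VIM (-0.44), CDH2 (-0.40) and ZEB1 (-0.04) and the ovarian marker WT1 (0.04) were not called. Of the endothelial markers PECAM1, CDH5 and VWF, also low in counts, PECAM1 and CDH5 were called lower. EPCAM, CDH1 and MUC16 were at or below 26 raw counts in all 4 libraries except EPCAM with siGGGGGC replicate 2, at 34.

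Of 16905 genes tested, 9183 (54.3%) differed between the siRNAs at an adjusted p below 0.05 in the quasi-likelihood test of edgeR. With a log2 fold change beyond 1 as well, 3881 genes (23.0%) were called, 1710 (10.1%) higher and 2171 (12.8%) lower with siGGGGGC. These shares are the background against which the gene groups below are read. The values of both groups of libraries did not overlap in 12800 genes (75.7%), so lack of overlap alone set few genes apart. Beyond a log2 fold change of 2 there were 377 genes higher and 614 lower, and beyond 3 there were 109 and 175. The median over all genes tested was -0.01. Among 2267 long noncoding RNAs 204 were called higher and 416 lower, and among 1186 processed pseudogenes 119 and 55.

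**Figure D1:**
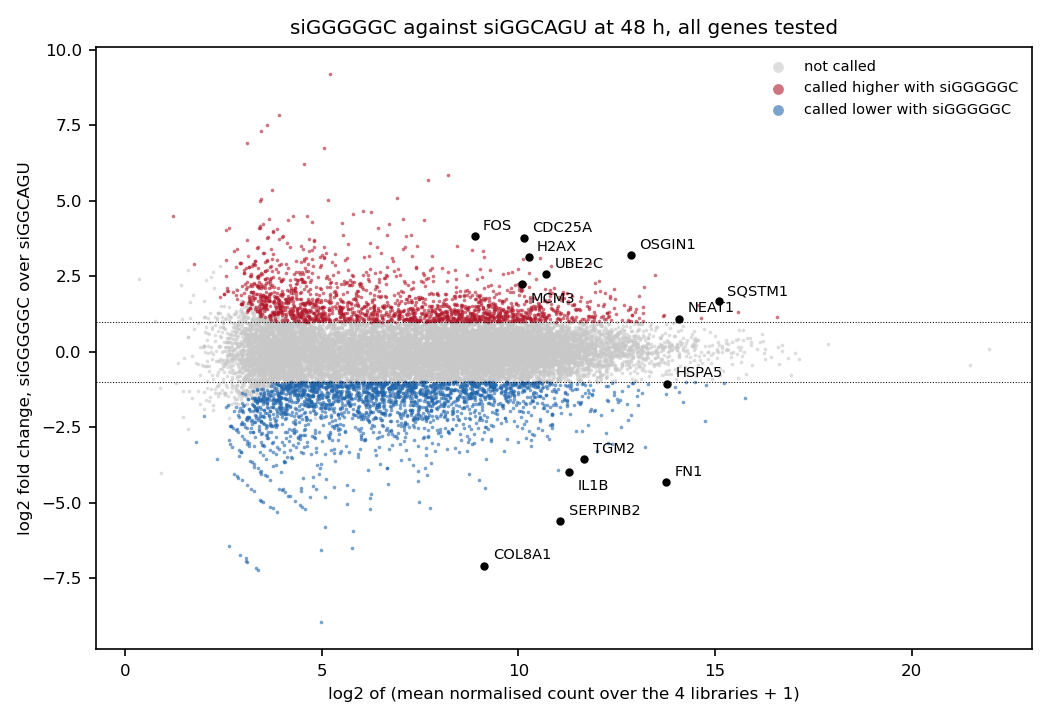
Log2 fold change of siGGGGGC over siGGCAGU at 48 h (vertical axis) against the log2 of the mean normalised count plus 1 over the 4 libraries (horizontal axis), 1 point per gene tested except 1 that is not reported here, in red where called higher, in blue where called lower and in gray where not called. Dotted lines mark log2 fold changes of 1 and -1, and the named genes (black) range from -7.09 for COL8A1 to 3.83 for FOS.

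Of the 12 abundant genes with the largest rises, 7 are given here, and OSGIN1, H2AX, FOSL1, IL11 and H2AC11 with other groups. CDC25A, the phosphatase that activates CDK2, was at 2119 and 2052 normalised counts with siGGGGGC and at 177 and 138 with siGGCAGU, while siNT1 cells had 1678 and 1760. The siGGGGGC libraries were therefore at or above the control level and the siGGCAGU libraries an order of magnitude below it. The same order held for ZNF367, a zinc finger protein, with 2778 and 2631 against 326 and 304 counts and 1706 and 1679 in siNT1 cells (log2 fold change 3.11 ± 0.0984 SE, adjusted p = 4.64e-12). TK1, the S-phase thymidine kinase, had 1667 and 1902 against 256 and 271, with 2205 and 2235 in siNT1 cells. UBE2C and UBE2S, the ubiquitin-conjugating enzymes of the anaphase-promoting complex, had log2 fold changes of 2.56 ± 0.100 and 2.42 ± 0.147 SE. BIRC5 (survivin, of the chromosomal passenger complex) had 2.33 ± 0.0940 SE. GLUL, glutamine synthetase, was at 2075 and 2123 counts against 409 and 287. In each of these genes the siRNA groups did not overlap, as the rule that chose them required.

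**Figure D2:**
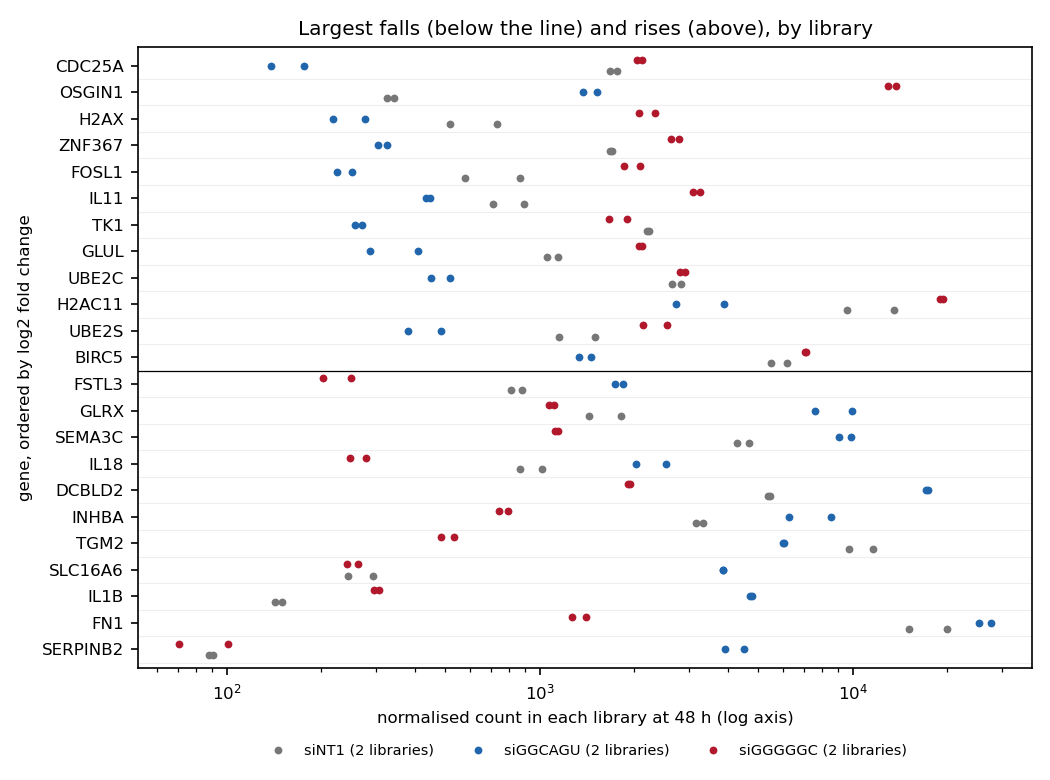
Normalised counts at 48 h (horizontal log axis) of the abundant genes with the largest rises (above the line) and falls (below it), 1 point per library for siGGGGGC (red), siGGCAGU (blue) and siNT1 (gray). The siGGGGGC points lie right of the siGGCAGU points in all genes above the line and left of them in all below, and the siNT1 points of CDC25A, UBE2C and BIRC5 lie near siGGGGGC, whereas those of SERPINB2, SLC16A6 and IL1B lie far left of siGGCAGU.

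The calls among DNA replication genes were in a single direction. Of 50 tested members 29 (58.0%) were called higher and 0 lower, with a median log2 fold change of 1.13. DESeq2 called 30 higher and 0 lower, and 2 members were lower at an unadjusted p below 0.05. GMNN (geminin, which limits origin licensing to a single round) was at 1361 and 1313 normalised counts against 211 and 234 (2.58 ± 0.0981 SE, adjusted p = 2.63e-11). MCM3 and MCM2, subunits of the replicative helicase, had log2 fold changes of 2.24 and 2.22, and the histone chaperone ASF1B 2.17. Against siNT1 the median of the list was -0.40 with siGGGGGC and -1.58 with siGGCAGU. Both of these comparisons use the siNT1 libraries at 48 h, so they are given only side by side.

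Genes of mitosis and chromosome segregation gave a like picture, with 32 of 48 called higher (66.7%), 0 called lower by edgeR or by DESeq2, 1 lower at an unadjusted p below 0.05, and a median of 1.12. SPC25, part of the NDC80 kinetochore complex, was at 497 and 436 counts with siGGGGGC against 57.5 and 76.6 with siGGCAGU (2.76 ± 0.15 SE, adjusted p = 8.73e-10). HMMR, which binds hyaluronan and the mitotic spindle, was at 2003 and 1987 against 538 and 382. In siNT1 cells SPC25 had 460 and 468 counts and HMMR 1709 and 1813, near the siGGGGGC libraries and far above those of siGGCAGU. The list medians against siNT1 were -0.50 for siGGGGGC and -1.64 for siGGCAGU.

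Among 29 genes of G1 cyclins, E2F and RB, 13 were called higher and 1 lower, with a median of 0.94. CCNE2, cyclin E2, was at 1630 and 1548 counts against 267 and 244 (2.64 ± 0.119 SE, adjusted p = 1.34e-10). CDK4, the kinase partner of D cyclins, was at 1341 and 1331 against 337 and 311, and CDC25C, the phosphatase that starts mitosis, rose by 1.87. The exception was CCND2 (-3.08), a D cyclin that was named after its values were seen. With a mean count of at least 50 required, 0 members of the list were called lower. Homologous recombination and Fanconi anemia genes were called higher in 10 of 23 cases and lower in 1 (median 0.91), with BLM, a RecQ helicase, at 1.91, the recombination protein XRCC2 at 1.68, the BRCA1 partner BARD1 at 1.49 and the exonuclease EXO1 at 1.48. In nucleotide synthesis 5 of 28 were called higher (17.9%, against 10.1% over all genes tested) and 1 lower. The deoxynucleotide enzymes TYMS (1.84), DTYMK (1.39) and RRM2 (1.17) rose, and IMPDH2, the rate-limiting enzyme of guanine nucleotide synthesis, fell by 1.60 on the log2 scale.

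Replication-dependent histone genes were called higher in 28 of 55 cases and lower in 3, with a median of 1.01. H2AC11 was at 19058 and 19457 counts against 3868 and 2728, and H2AC20 and H2BC26 had log2 fold changes of 2.27 and 2.35. H3C13 (3.35 ± 0.275 SE) was at 1018 and 964 against 132 and 72.9. H2BC7 (-1.09) and H4C16 (-1.07) were lower with siGGGGGC, so the histone genes did not move as a block. Histone copies resemble each other closely and their messages mostly lack poly(A) tails, and the libraries were made from total RNA. How reads matching several copies were counted is not given in the sources used here, so values of single copies are uncertain. H2AX, the histone variant phosphorylated at DNA breaks, also rose (3.14).

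A list of 27 tested genes known as miR-34a targets had 11 called higher with siGGGGGC than with siGGCAGU and 1 called lower, with a median of 0.82. Its largest value was that of PDGFRB (4.50), given above with its few counts, where siNT1 cells had 7 and 4 raw counts. In all but 1 member, 26 of 27, the searched 3′ UTR held ACTGCC, against 36.5% of all genes with a 3′ UTR. The list was chosen as known targets of a microRNA with this seed, so that share is tied to the choice and is not independent evidence. FOSL1, an AP-1 subunit, was at 1857 and 2089 counts against 251 and 225 (3.06 ± 0.175 SE, adjusted p = 1.3e-09). MAP2K1, the kinase MEK1, was at 1383 and 1529 against 332 and 339. CCNE2 and CDK4 are also members, and CDK4 is the 1 whose searched 3′ UTR held no ACTGCC. AXL, a receptor tyrosine kinase, went the other way with 1146 and 1293 against 4658 and 3723 counts (-1.78 ± 0.110 SE, adjusted p = 3.24e-09). In siNT1 cells AXL had 9633 and 8828 counts, so both siRNAs lay below the control and siGGGGGC lay lower. The siNT1 counts of FOSL1 (867 and 575) and CCNE2 (686 and 830) lay between the siRNAs, and those of CDK4 (1870 and 1555) above both. The medians of this list against siNT1 were -0.29 for siGGGGGC and -1.13 for siGGCAGU.

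The 10 genes that the study chose as siGGGGGC targets had a median of -1.99, and 10 of 10 were called lower with siGGGGGC than with siGGCAGU, where the whole set of tested genes had 12.8%. DESeq2 called 9. The study picked them at 24 h for a fall with siGGGGGC and for a GCCCCC match, so the word in the searched 3′ UTR of all 10 follows from that choice. None of the 4 libraries compared here entered it, but the list was chosen on this series and is not independent evidence of its direction. APEX1, a base excision repair endonuclease, was at 332 and 346 counts with siGGGGGC, 2141 and 2342 with siGGCAGU and 2041 and 2055 with siNT1. POLR2E, a subunit shared by the nuclear RNA polymerases, showed the same with 454 and 510 against 1905 and 1984, and 1873 and 1908 in siNT1 cells. EIF5A, a translation factor, was at 819 and 773 against 3916 and 5860, where the siGGCAGU wells lay apart from each other. The others were RHOC (-2.43), a small GTPase, POLR2K (-1.97), a further polymerase subunit, CENPB (-1.83), a centromere protein, PES1 (-1.76), a ribosome biogenesis factor, HMGA1 (-1.74), a chromatin protein, PPP1R14B (-1.02), a phosphatase inhibitor, and TGM2 (-3.56), a transglutaminase that crosslinks proteins.

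Of 43 tested extracellular matrix genes, 25 (58.1%) were called lower with siGGGGGC and 0 higher, with a median of -1.23, and DESeq2 called 24 lower and 1 higher. At an unadjusted p below 0.05, 2 members were higher. COL8A1, a short-chain collagen, was at 8.94 and 7.25 normalised counts with siGGGGGC, 1087 and 1142 with siGGCAGU and 43.4 and 53.9 with siNT1 (-7.09 ± 0.211 SE, adjusted p = 3.82e-12). The lysyl oxidase LOX, which crosslinks collagen, was at 298 and 295 against 2414 and 2089, and THBS1, thrombospondin 1, at 401 and 450 against 2750 and 2228. In LOX and THBS1 the siNT1 libraries lay between the siRNAs, at 516 to 720 and at 723 to 933. FN1, fibronectin, had 25241 to 27733 counts with siGGCAGU and 1268 to 1402 with siGGGGGC, and siNT1 cells with 15152 to 20024 were nearer to siGGCAGU. The medians of the list against siNT1 were -0.69 for siGGGGGC and 0.46 for siGGCAGU, opposite in sign.

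Other genes of the cell surface and of matrix turnover were lower in part. Of the 13 integrins tested, 3 (23.1%) were called lower and 0 higher by either tool, with 3 higher at an unadjusted p below 0.05. ITGA2 and ITGA3, which pair with beta 1 integrin to bind collagen and laminin, had log2 fold changes of -2.13 and -1.65. Plasminogen activators and serpins were called lower in 6 of 10 cases and higher in 1. SERPINB2, the inhibitor PAI-2, stood at 101 and 70.4 counts with siGGGGGC, close to the 87.5 and 90.5 of siNT1, against 4501 and 3898 with siGGCAGU. PLAT (tissue plasminogen activator, -1.79), SERPINE2 (protease nexin 1, -1.53) and SERPINB7 (-1.19) were also lower, while PLAUR, the urokinase receptor, was higher (1.15). The YAP and TEAD targets had 4 of 23 called lower (17.4%) and 1 higher (4.3%). Their share called lower was near the 12.8% over all genes tested. F3, tissue factor, was among those lower, at 1302 and 1280 against 8482 and 8268 counts. In the hyaluronan group, 2 of 10 were called higher and 3 lower. The synthase HAS2 was at 121 and 108 against 289 and 304 counts, both far below the 2502 and 2829 of siNT1.

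Further abundant genes with large falls encode signalling and transport proteins. DCBLD2, a neuropilin-like membrane protein, was at 1921 and 1941 normalised counts against 17377 and 17098 (-3.16 ± 0.0898 SE, adjusted p = 3.43e-12). SLC16A6, a monocarboxylate transporter family member, was at 241 and 263 against 3846 and 3840, and siNT1 cells with 243 and 294 matched siGGGGGC. INHBA, the activin A subunit, had a log2 fold change of -3.27, FSTL3, which binds activin, -2.98, SEMA3C, a secreted semaphorin, -3.06, and the glutaredoxin GLRX -3.01. INHBA, FSTL3 and SEMA3C were below siNT1 with siGGGGGC (-2.08, -1.89 and -1.98) and above it with siGGCAGU (1.19, 1.09 and 1.08).

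Part of the inflammatory messages was lower with siGGGGGC. In the list of IL1, CXC chemokines and NF-kB, 10 of 27 members (37.0%) were called lower and 2 higher, with a median of -0.38. IL1B, interleukin 1 beta, was at 307 and 296 counts with siGGGGGC, 4762 and 4702 with siGGCAGU and 143 and 150 with siNT1 (-3.97 ± 0.0995 SE, adjusted p = 1.56e-12). IL18, another cytokine of the IL1 family, was at 279 and 249 against 2537 and 2037. The chemokines CCL20 (-4.04), CXCL1 (-2.61) and CXCL3 (-1.86) were lower as well. IL11, a cytokine of the IL6 family, was higher at 3095 and 3259 against 433 and 446 (2.85 ± 0.121 SE, adjusted p = 7.69e-11), and so was BIRC3, an inhibitor of apoptosis induced by NF-kB (1.72). Against siNT1 the median of the list was 1.20 with siGGGGGC and 1.30 with siGGCAGU.

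Of 30 interferon-stimulated genes tested, 12 (40.0%) were called lower with siGGGGGC and 1 higher, with a median of -0.65. IFIT1, which binds RNA lacking cap methylation, was at 72.7 and 59.0 counts against 494 and 363 (-2.69 ± 0.204 SE, adjusted p = 2.89e-08), with 23.2 and 32.7 in siNT1 cells. STAT2, of the transcription factor complex ISGF3, was at 372 and 412 against 1823 and 1694, and SAMD9 (-1.99) and IFI35 (-1.87) followed. ISG15 (0.58), a ubiquitin-like protein that interferon induces, was named after its values were seen and was not called, and DESeq2 called 11 members lower and 0 higher. The medians against siNT1 were 0.61 for siGGGGGC and 1.35 for siGGCAGU.

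Immediate early genes of the AP-1 family were higher with siGGGGGC, 7 of 23 (30.4%) against 0 lower by either tool, with 2 lower at an unadjusted p below 0.05 and a median of 0.61. FOS was at 872 and 895 normalised counts against 58.9 and 64.0, and siNT1 cells had 58.1 and 57.9 (3.83 ± 0.129 SE, adjusted p = 8.93e-12). Its level with siGGCAGU was that of the control. ATF3, a stress-induced factor of the ATF family, was at 846 and 810 against 164 and 153, with 64.3 and 61.9 in siNT1 cells, and IER5 rose by 1.21. The list medians against siNT1 were 0.82 for siGGGGGC and -0.06 for siGGCAGU.

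Among stress and death pathways, calls went both ways. In the list of ATF4 and the unfolded protein response, 7 of 30 were called higher (23.3%) and 4 lower (13.3%), with a median of 0.11. SESN2 (1.84), DDIT4 (1.52) and TRIB3 (1.43), which ATF4 induces, rose with ATF3. The endoplasmic reticulum proteins CRELD2 (-1.27), CALR (calreticulin, -1.14), HSPA5 (BiP, -1.06) and HSP90B1 (-1.05) fell. HSPA5 was at 9018 and 9239 counts against 19013 and 19024, so the groups were well apart. Of 28 p53 targets 4 were called higher, among them CDKN1A, the CDK inhibitor p21 (11637 and 12996 against 6508 and 5611 counts, 1.02 ± 0.0969 SE), and 2 lower, TP53I3 (-1.13) and SPATA18 (-1.10). In the BCL2 family 3 of 16 were called higher and 2 lower. PMAIP1 (NOXA, a BH3-only protein) was at 5497 and 5544 against 1749 and 1663 (1.70 ± 0.0821 SE, adjusted p = 2.64e-10), and the pro-survival members BCL2A1 (-1.73) and BCL2L2 (-1.47) were lower. Of 16 death receptor pathway genes 1 was called higher and 2 lower. Beside the background of 10.1% higher and 12.8% lower, the shares were 14.3% and 7.1% for p53 targets, 18.8% and 12.5% for the BCL2 family and 6.2% and 12.5% for death receptors, all near it.

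The NRF2 antioxidant list had medians against siNT1 of 1.33 with siGGGGGC and 1.29 with siGGCAGU. Between the siRNAs 6 of 29 were called higher (20.7%) and 1 lower (3.4%). OSGIN1, an oxidative stress response protein, was at 12996 and 13799 counts with siGGGGGC, 1374 and 1527 with siGGCAGU and 325 and 343 with siNT1. SQSTM1 (p62, the autophagy receptor that also frees NRF2 from KEAP1) was at 54037 and 52852 against 17897 and 15746, with 3618 and 3638 in siNT1 cells (1.67 ± 0.103 SE, adjusted p = 3.12e-09). GCLM, a subunit of the glutathione-synthesizing ligase, and HMOX1, heme oxygenase 1, rose by 2.00 and 1.20 (HMOX1 with siGGCAGU was at -0.38 against siNT1), and the ketosteroid reductase AKR1C3 fell by 1.62 on the log2 scale. In the autophagy list 5 of 37 (13.5%) were called higher and 0 lower by either tool, with a median of 0.03. The share called higher was near the 10.1% over all genes tested. At an unadjusted p below 0.05, 14 were higher and 9 lower. The called members included SQSTM1 and ATG4C (1.23), and ATG16L1 (1.03) and ATG4B (1.02) at the fold threshold. Lysosomal and V-ATPase genes gave 1 of 40 higher (2.5%), the pump subunit ATP6V1D (1.29), and 3 lower (7.5%). These shares were below those over all genes tested, and the lower members included the cathepsins CTSB (-1.36) and CTSL (-1.33).

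In metabolism, cholesterol and fatty acid synthesis had 11 of 35 genes called higher (31.4%) and 2 lower, with a median of 0.28. HMGCS1, the synthase before HMG-CoA reductase, was at 3381 and 3485 counts against 1014 and 973 (1.79 ± 0.0831 SE, adjusted p = 1.71e-10), while siNT1 cells had 2859 and 2961. HSD17B7 (1.76), MSMO1 (1.56) and SQLE (1.46), later enzymes of the sterol pathway, rose too. Glycolysis had 4 of 23 called higher (17.4%, against 10.1% over all genes tested) and 0 lower. DESeq2 called 5 higher and 0 lower, and 3 were lower at an unadjusted p below 0.05. TPI1, triosephosphate isomerase, was at 35317 and 35048 against 13319 and 10889, and the glucose transporter SLC2A1 at 3382 and 3597 against 1478 and 1307. PFKFB3, which makes the activator of phosphofructokinase, and PGAM1 had log2 fold changes of 1.19 and 1.01.

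Several large groups of housekeeping genes differed little in fold size, although in some many members differed at an adjusted p below 0.05. Of 33 proteasome subunits 0 were called in either direction by edgeR or DESeq2, although 16 were higher and 6 lower at an unadjusted p below 0.05. PSMB1 had a log2 fold change of 0.25 with a 95% interval of -0.02 to 0.52. PSMA7 was at 0.56 (0.34 to 0.78) and PSMB7 at 0.45 (0.22 to 0.69), both higher at adjusted p of 5.19e-05 and 0.000569 but short of the fold threshold. Of 30 SR and hnRNP splicing factors 0 were called by either tool, with 8 higher and 1 lower at an unadjusted p below 0.05. HNRNPK was at 0.18 (95% interval -0.07 to 0.43), HNRNPC at 0.22 (-0.07 to 0.51) and HNRNPH1 at 0.20 (-0.31 to 0.71). In the siGGCAGU wells HNRNPH1 had 8557 and 16529 counts, its interval was wide, and its sign turned when the first of them was left out (-0.20). Cytosolic ribosomal proteins gave 4 of 82 called higher and 0 lower by either tool (19 higher and 8 lower at an unadjusted p below 0.05). Nuclear-encoded respiratory chain genes gave 2 of 75 and 0, again by either tool (18 higher and 25 lower at an unadjusted p below 0.05). Mitochondrial ribosomal proteins gave 1 of 78 and 5, while 29 were higher and 24 lower at an adjusted p below 0.05 in the edgeR test. RPS12 (1.12), RPS15 (1.32) and RPL39L (1.30) rose, and all have close copies in the genome. The highest log2 fold change among the cytosolic ribosomal proteins was 4.09, in another member that is not named here. COX7C, of cytochrome c oxidase, was at -0.06 (95% interval -0.34 to 0.22), COX6C at 0.20 (-0.09 to 0.50), and the ATP synthase subunit ATP5F1E at -0.38 (-0.69 to -0.07), lower at an adjusted p of 0.0148 but short of the fold threshold. Heat shock chaperones gave 0 of 29 called higher by either tool, 11 higher at an unadjusted p below 0.05, and 1 lower. HSPA8 (-0.45), HSP90AB1 (-0.59) and HSP90AA1 (0.31) were their most abundant members. Cytosolic aminoacyl-tRNA synthetases gave 0 of 20 higher, with 6 higher at an unadjusted p below 0.05, and 1 lower, AARS1 (-1.002), which DESeq2 did not call. The 13 genes of the mitochondrial genome were listed at 0 in every library and were not tested.

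Calls among genes of the machinery that siRNAs and microRNAs share were few and went both ways. Of 13 Argonaute and microRNA processing genes, 3 (23.1%) were called higher and 2 (15.4%) lower, against 10.1% and 12.8% over all genes tested. When tested against a log2 fold change of 1 rather than 0, 0 were called higher and 1 lower. TNRC6A and TNRC6C, scaffold proteins of silencing, had log2 fold changes of 1.00 and 1.16, whereas their paralog TNRC6B was lower at 871 and 902 counts against 1824 and 1854 (-1.05 ± 0.0984 SE, adjusted p = 2.76e-07). XPO5, the exporter of microRNA precursors, rose by 1.03, and DROSHA, the nuclear microRNA processing enzyme, was at 136 and 151 against 438 and 463 (-1.65 ± 0.140 SE, adjusted p = 9.91e-08). RNA polymerase subunits were called lower in 3 of 26 cases (11.5%, near the 12.8% over all genes tested). By either tool 0 were called higher (9 higher at an unadjusted p below 0.05). The 3 are POLR2E and POLR2K, described above, and POLR3G (-2.06), of RNA polymerase III. Ribosome biogenesis had 2 of 49 called higher, the assembly factor WDR74 (1.95) and the snoRNP protein NOP58 (1.02), and 1 lower, PES1.

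**Figure D3:**
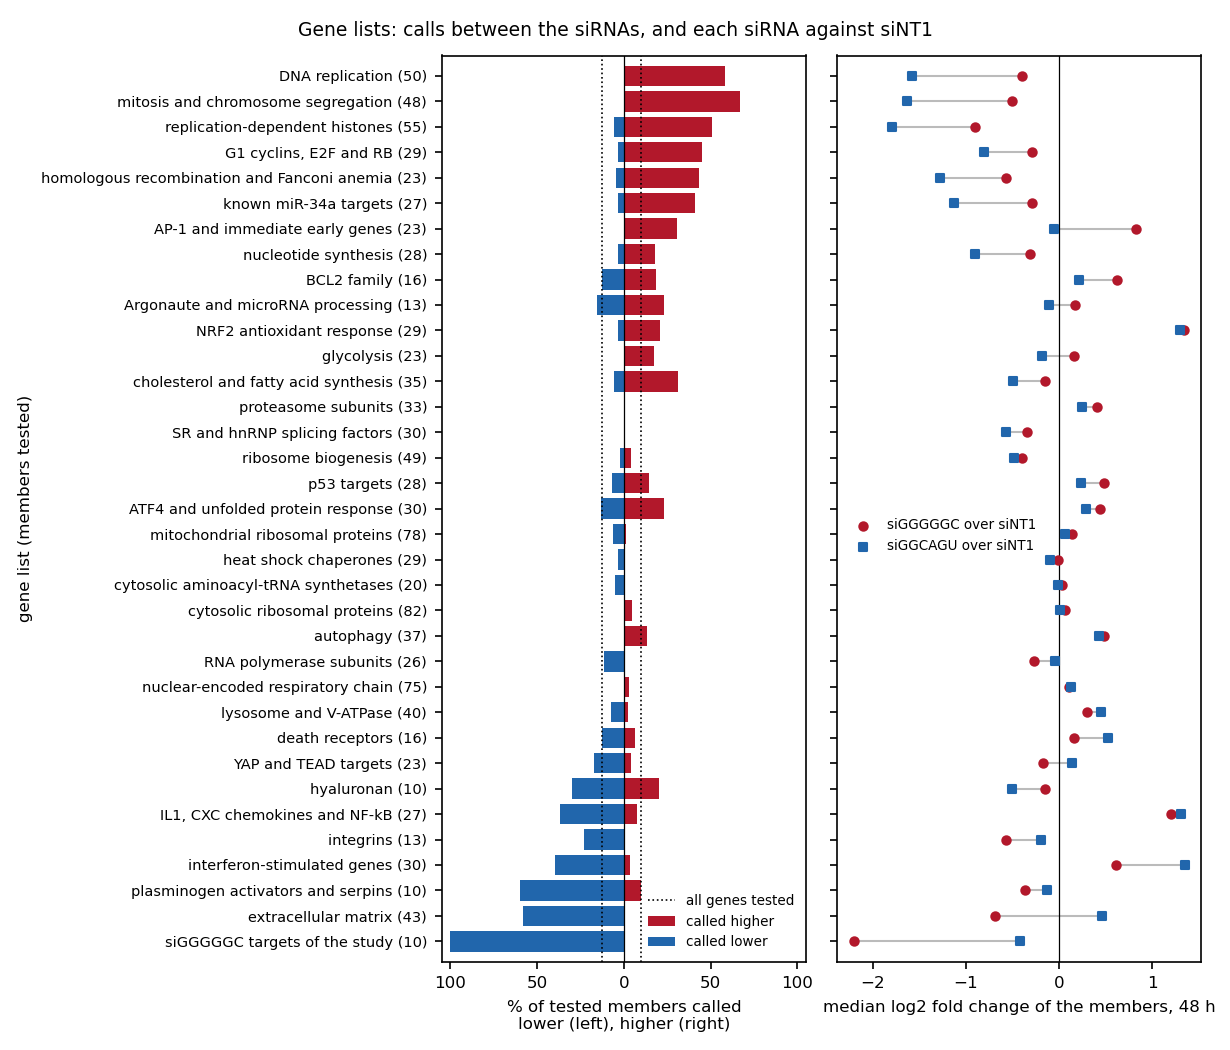
Left, the percentage of the tested members of each gene list called higher (red, to the right) or lower (blue, to the left) with siGGGGGC than with siGGCAGU, with dotted lines at the shares over all genes tested (10.1% higher and 12.8% lower). Right, the median log2 fold change of each list against siNT1 at 48 h for siGGGGGC (red circles) and siGGCAGU (blue squares), where extracellular matrix genes lie on opposite sides of 0 (-0.69 and 0.46) and NRF2 genes coincide (1.33 and 1.29).

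Among genes that do not encode proteins, NEAT1, the RNA scaffold of paraspeckles, was at 23301 and 23945 counts against 11046 and 11042, with 5733 and 3995 in siNT1 cells (1.10 ± 0.126 SE, adjusted p = 2.54e-06). The other abundant ones are copies of protein-coding genes. RPS15P4 (2.13), HMGB1P5 (1.20) and ENSG00000227615 (1.19) were higher and ANXA2P2 (-1.09) was lower. Reads of such copies cannot be told apart from those of their parent genes with certainty.

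Seed matches were searched in the longest annotated 3′ UTR of 12396 protein-coding genes. Sites are named by what flanks the word, with 6mer for the word alone, 7mer-m8 for a T before it that pairs with guide position 8, 7mer-A1 for an A after it, and 8mer for both. Among the abundant genes with the largest falls, 4 had a GCCCCC word, and among those with the largest rises the first 6 with an ACTGCC word are shown. These windows of 22 bases (hg38) carry the best site of each gene, with the word in capitals.
TGM2, 7mer-A1, chr20:38130184-38130205, minus strand: ccagcctgctgagaGCCCCCac
INHBA, 7mer-m8, chr7:41687954-41687975, minus strand: ctcctcttttttgtGCCCCCtc
GLRX, 6mer, chr5:95814136-95814157, minus strand: tgataaaacttacaGCCCCCta
FSTL3, 7mer-m8, chr19:682592-682613, plus strand: gaaatgcccagtgtGCCCCCtg
CDC25A, 8mer, chr3:48158422-48158443, minus strand: cattaggttgaaatACTGCCat
H2AX, 6mer, chr11:119094197-119094218, minus strand: cttcctcccgagtgACTGCCtc
ZNF367, 7mer-m8, chr9:96388197-96388218, minus strand: cactgtacaaaagtACTGCCca
FOSL1, 7mer-A1, chr11:65892549-65892570, minus strand: accccttccagatcACTGCCac
TK1, 6mer, chr17:78174717-78174738, minus strand: gctcccttcctgccACTGCCgc
GLUL, 8mer, chr1:182378495-182378516, minus strand: gttcttaaagttctACTGCCaa
H2AX, among the rises, also held 2 copies of GCCCCC and FOSL1 and BIRC5 1 each, and among the falls TGM2, FSTL3 and GLRX also held ACTGCC, in GLRX as a 7mer-m8. TGM2 held 4 copies of GCCCCC and GLUL 4 of ACTGCC, while FN1, SERPINB2, IL1B, SLC16A6, DCBLD2, IL18, SEMA3C and COL8A1, among the strongest falls, held no GCCCCC in the searched 3′ UTR. A word is a description of the sequence, and whether it was bound was not tested.

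Over all genes, the siRNAs differed in the direction of their own words. The 3918 genes with GCCCCC had a median log2 fold change 0.16 lower than the 8478 without (-0.1587), and the 4528 with ACTGCC a median 0.06 higher than the 7868 without (0.0611). In the 4 pairings of a siGGGGGC with a siGGCAGU library the shift lay between -0.19 and -0.12 for GCCCCC and between 0.0557 and 0.0785 for ACTGCC. Replicates compared with each other gave shifts of -0.0475 and -0.0398 for GCCCCC and -0.0015 and -0.0149 for ACTGCC. Genes are not replicates, so no p is given.

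When the words were separated, the 6024 genes with neither had a median of 0.02, the 1844 with GCCCCC only -0.17, the 2454 with ACTGCC only 0.13 and the 2074 with both -0.05. Of the genes with GCCCCC only, 6.6% were called higher and 17.6% lower, and of those with ACTGCC only 14.5% and 9.6%. In genes lacking the other word, 1, 2 and 3 or more copies of GCCCCC went with medians of -0.12, -0.24 and -0.29, and those of ACTGCC with 0.12, 0.17 and 0.23. By site type the medians ran from -0.06 (6mer) to -0.245 (8mer) for GCCCCC and from 0.09 to 0.25 for ACTGCC. Genes called lower and genes called higher had median 3′ UTR lengths of 1360 and 1528 bases and GC contents of 44.6% and 42.1%, against 1538 bases and 42.0% for all. After the dependence on 3′ UTR length and base composition was regressed out the shifts were -0.12 and 0.0853.

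**Figure D4:**
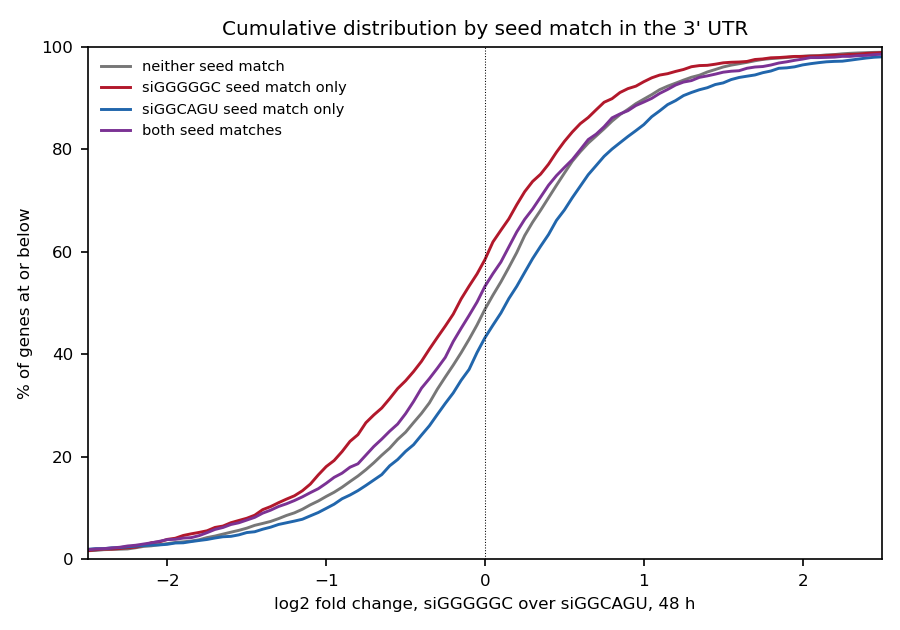
Cumulative percentage of genes (vertical axis) at or below a log2 fold change of siGGGGGC over siGGCAGU (horizontal axis), for genes whose 3′ UTR holds neither seed match (gray), the siGGGGGC match only (red), the siGGCAGU match only (blue) or both (purple). The red curve lies left of the gray (medians -0.17 and 0.02) and the blue curve right of it (median 0.13).

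The promoters of some of the gene lists were described by short words, read on both strands of RefSeq promoters of 300 bases (GRCh38.p14). These words were chosen after the values were seen. The lists were chosen from knowledge of the pathways, and the shares count every tested member with a promoter, called or not. They are thus tied to the choice of list and are not independent evidence about the changes. The E2F-like words TTTCCCGC, TTTCGCGC, TTTGCCGC and TTTGGCGC were in 44.2% of 43 DNA replication promoters and in 3.3% of all promoters. The CHR word TTTGAA, known from genes that peak in G2 and mitosis, was in 73.8% of 42 mitosis promoters and 15.4% of all, and the CCAAT word in 73.8% and 35.7%. The ISRE word GAAANNGAAA was in 72.7% of 22 interferon-stimulated promoters and 3.6% of all. Over the genes tested the shares were 5.3% for E2F-like words, 10.1% for CHR, 36.8% for CCAAT and 2.8% for ISRE. In 34 extracellular matrix promoters they were 0.0%, 8.8%, 32.4% and 0.0%, and 2.9% for the AP-1 word TGANTCA. Over whole sets of called genes the shares differed less. E2F-like words were in 7.9% of promoters of genes called higher and 4.1% of those called lower, against 5.3% of the genes tested, and the AP-1 word TGANTCA in 5.6% and 7.5% against 4.9%. Windows from members of the lists show the word in capitals on the strand of the gene.
MCM3, chr6:52284899-52284926, minus strand: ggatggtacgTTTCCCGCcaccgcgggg
MCM2, chr3:127598403-127598430, plus strand: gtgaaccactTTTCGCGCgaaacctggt
HMMR, chr5:163460594-163460619, plus strand: tgtggggagaTTTGAAtttgaaaccg
IFIT1, chr10:89392510-89392539, plus strand: cactttccccTTTCGGTTTCcctaggtttc
SAMD9, chr7:93118096-93118125, minus strand: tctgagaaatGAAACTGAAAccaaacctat
In IFIT1 the word reads on the opposite strand.

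The siGGGGGC and siNT1 libraries at 24 h share no library with the comparison of the siRNAs, and were used to look up its genes. At 24 h 262 genes (1.55%) were called higher with siGGGGGC than with siNT1 and 367 (2.17%) lower. Of the 1710 genes called higher than with siGGCAGU at 48 h, 104 (6.08%) were higher at 24 h and 9 (0.53%) lower, with a median log2 fold change of 0.25. Of the 2171 called lower, 180 (8.29%) were lower and 18 (0.83%) higher, with a median of -0.30. OSGIN1 (1.98), H2AX (1.27) and UBE2C (0.93) were already above siNT1 at 24 h, and TGM2 (-1.66) and FN1 (-1.46) below it, whereas SERPINB2 was at -0.67 and IL1B at -0.15. No siGGCAGU library at 24 h was analysed here.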

How the data were processed

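RNA of HeyA8 cells was sequenced paired-end from total RNA depleted of ribosomal RNA. The authors' methods name Trimmomatic, TopHat or STAR, hg38, Ensembl annotation and htseq, and the submitters' notes list TopHat, Bowtie2 and HTSeq. The strand setting was not given in the sources used here. The deposited files hold raw counts per gene, without normalization, for 58395 genes, and 0 entries name no gene. The authors' 4 tables of comparisons with siNT1 (mean normalised count, log2 fold change, p) were not used.

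Counts were tested with edgeR 4.0.16 (R 4.3.3), with TMM scaling, filterByExpr and the quasi-likelihood F test, in a fit of all 10 libraries with 5 groups and 5 residual degrees of freedom. Benjamini-Hochberg adjustment ran over the 16905 genes kept. A gene was called at an adjusted p below 0.05 and a log2 fold change beyond 1. The spread is thus shared by the 5 groups (biological coefficient of variation 0.0837). DESeq2 1.42.0 was an alternative. Scripts were tested on simulated data. Values per library are normalised counts, and 95% intervals use the standard error with 5 degrees of freedom. Replicates of siGGGGGC and siGGCAGU differed by more than counting noise.

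Symbols, coordinates and 3′ UTRs come from GENCODE release 44, which holds 98.9% of the identifiers. The gene lists and libraries were chosen with earlier results of these data known. Named genes were the 12 largest rises and falls among protein-coding genes with a mean normalised count of at least 1000 and no overlap, up to 4 called members each way per list with a mean of at least 200 (or the 3 most abundant where none was called), the targets of the study, the 5 most abundant called genes that encode no protein, and cell type markers. Some genes selected by this rule are not reported here. Other scalings, filters, tools and library subsets were tried, 77 combinations of result and setting in all.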

Additional observations from a re-analysis of the deposited data

How the results depend on the processing

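Of the 158 named genes, 138 kept their direction and their side of the threshold in every alternative but glmTreat, 17 lost their call in at least 1 and 3 turned. The turns were in genes near 0, HNRNPH1 (-0.196 to 0.751 with a library left out, negative without siGGCAGU replicate 1), WT1 (-0.004 with no filter on low counts, and -0.249 to 0.293 with a library left out) and ZEB1 (-0.14 to 0.046 with a library left out). The genes that lost their call when a library was left out all lay near the fold threshold or had few counts. Without siGGGGGC replicate 1 these were AARS1 (-0.891), ATG16L1 (0.992), CDH5 (-0.681), MRPS6 (-0.90) and TNRC6A (0.964). Without siGGGGGC replicate 2 they were ATG4B (0.958), CDKN1A (0.946), EPCAM (0.899), HSP90B1 (-0.962), PGAM1 (0.948) and PPP1R14B (-0.991). Without siGGCAGU replicate 1 they were ANXA2P2 (-0.95), CALR (-0.985), CDH5 (-0.864), H2BC7 (-0.937), MRPL49 (-0.931), NOP58 (0.86) and TNRC6A (0.882). Without siGGCAGU replicate 2 they were AARS1 (-0.945), ATG16L1 (0.868), ATG4B (0.997), CDKN1A (0.914), HSP90B1 (-0.748), MRPS6 (-0.656), PGAM1 (0.932) and XPO5 (0.969). Of the larger list counts, nucleotide synthesis went from 5 to 8 called higher without siGGCAGU replicate 1, and without siGGCAGU replicate 2 autophagy went from 5 to 3 and ribosome biogenesis from 2 to 4 called higher, and lysosomal genes from 3 to 5 called lower. A mean count of at least 50 left 2288 called genes, 975 higher and 1313 lower, because 11516 genes were then tested. glmTreat, which tests against a log2 fold change of 1 rather than 0, called 1787, 732 higher and 1055 lower. Applied to the named genes after seeing the data, it left 36 of the 141 with a call uncalled, among them CDKN1A, CALR, HSPA5, HSP90B1, HMOX1, RRM2, NEAT1 and EPCAM. It called 0 of the p53 and ATF4 lists lower. Of the mitosis list it called 19 higher rather than 32, and of the histones 16 rather than 28. It called 16 rather than 25 extracellular matrix genes lower, and 3 rather than 6 plasminogen activators and serpins. With no filter on low counts the shift of genes with GCCCCC was -0.0046 and that of ACTGCC 0, since 41458 genes then entered, most of them with few counts. Regressing out 3′ UTR length and base composition gave 0.0853 for ACTGCC, and leaving out a library gave 0.0547 to 0.083. The DESeq2 Wald test called 3410 genes, of which 3357 were called the same way as by edgeR. The replicate block called 3849 genes in the fit of all libraries (1690 higher, 2159 lower) and 3819 in that of the 4 libraries compared (1684 and 2135). The deviations of same-numbered libraries correlated over genes at 0.0287 for siGGGGGC and siGGCAGU. They correlated at -0.2211 for siGGGGGC and siNT1 and at -0.1033 for siGGCAGU and siNT1. With 2 libraries per group, these values cannot settle whether libraries of the same number belong together. The replicate block changed no count over all genes by over 1.5 times. Of the list counts it moved the integrins called higher from 0 to 1 in both fits and the hyaluronan genes from 2 to 1 in the fit of 4 libraries.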
